A study of Mus musculus with 4 samples.

Results

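The sperm lysozyme-like genes Lyzl1, Lyzl4, Lyzl6 and Spaca3 were examined in testes of adult mice labelled Ppp2ca-cKO or wild type. Ppp2ca is the gene of a catalytic subunit of protein phosphatase 2A. The members were chosen by gene symbol, and every transcript that the deposited table lists under these 4 symbols was taken. This gave 6 transcripts of 4 genes, out of 11304 listed transcripts of 7453 genes. They were Lyzl1-201, Lyzl1-202, Lyzl4-204, Lyzl6-201, Lyzl6-202 and Spaca3-201, which are 6 of the 12 transcripts annotated for these genes in GENCODE vM21. The other 6 are not analysed here. The table lists only transcripts that the authors called different between the genotypes, so each listed transcript had to differ, and the fold changes and calls below describe the members and support nothing further.

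RNA came from the left testis of C57BL/6 mice at postnatal day 56, with 2 libraries labelled Ppp2ca-cKO, whose genotype is given as Ppp2ca-/- and which are called cKO here, and 2 labelled wild type (WT). In all 4 libraries the RNA was of the whole testis, extracted with Trizol and prepared with an Illumina TruSeq kit. The sources used here name neither the Cre driver, and so the cells that lost Ppp2ca, nor the number of animals. The labels do not say whether equal replicate numbers share a litter or a day, and p-values measure only the spread between these samples, which may be technical. Library totals were 18684330 and 19834927 reads in the cKO and 17612150 and 19783778 reads in the WT. Ppp2ca has no row in the table, so none of its transcripts was among those the authors called. The genotype labels could not be checked against it.

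Lysozymes of the c type are secreted enzymes that cut the sugar backbone of bacterial cell walls. The sperm lysozyme-like proteins are relatives of these enzymes that are made in the testis and carried by the sperm head, several of them in the acrosome, the vesicle over the front of the nucleus that opens when sperm meet the egg. SPACA3, also called SLLP1, lies in the acrosome, lacks the residues that lysozyme needs to cut its substrate, and has been linked to the binding of sperm to the egg membrane.

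The 4 genes lie apart in the genome. On GRCm38, Lyzl4 spans chr9:121577843-121642096 on the minus strand, Lyzl6 spans chr11:103631070-103638890 on the minus strand and Spaca3 spans chr11:80858365-80867814 on the plus strand. Each has a coding exon of 79 bases, and the coding exon before it has 159 bases, or 150 in Lyzl4.

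The same 79-base exon length is found in Spaca5, an X-linked member of the family named for the sperm acrosome, and in Lyz2, the lysozyme of macrophages. This exon is shown for 3 members, Spaca5 and Lyz2 because its fixed length lets the family be read base against base. The sequences are from GENCODE vM21 transcripts, 5′ to 3′ on the coding strand, and capitals mark the 19 of 79 bases that are identical in every gene shown.
Lyzl4 (chr9:121582981-121583059, minus strand): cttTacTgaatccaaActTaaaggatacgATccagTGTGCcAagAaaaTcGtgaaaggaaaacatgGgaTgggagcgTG
Lyzl6 (chr11:103633900-103633978, minus strand): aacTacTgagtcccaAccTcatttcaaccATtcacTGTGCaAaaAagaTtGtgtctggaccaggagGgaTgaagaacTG
Spaca3 (chr11:80864512-80864590, plus strand): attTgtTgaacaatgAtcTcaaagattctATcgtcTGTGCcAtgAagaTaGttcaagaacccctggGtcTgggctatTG
Spaca5 (chrX:21077607-21077685, plus strand): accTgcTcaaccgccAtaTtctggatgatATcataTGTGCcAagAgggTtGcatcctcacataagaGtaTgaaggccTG
Lyz2 (chr10:117278643-117278721, minus strand): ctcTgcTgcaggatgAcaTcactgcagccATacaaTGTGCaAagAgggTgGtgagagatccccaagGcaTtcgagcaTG
The longest run of capitals is TGTGC. Over the whole coding sequence, the 6 pairs of members were 48.6% to 56.8% identical in bases, and the longest run shared by any pair was 18 bases.

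**Figure D1:**
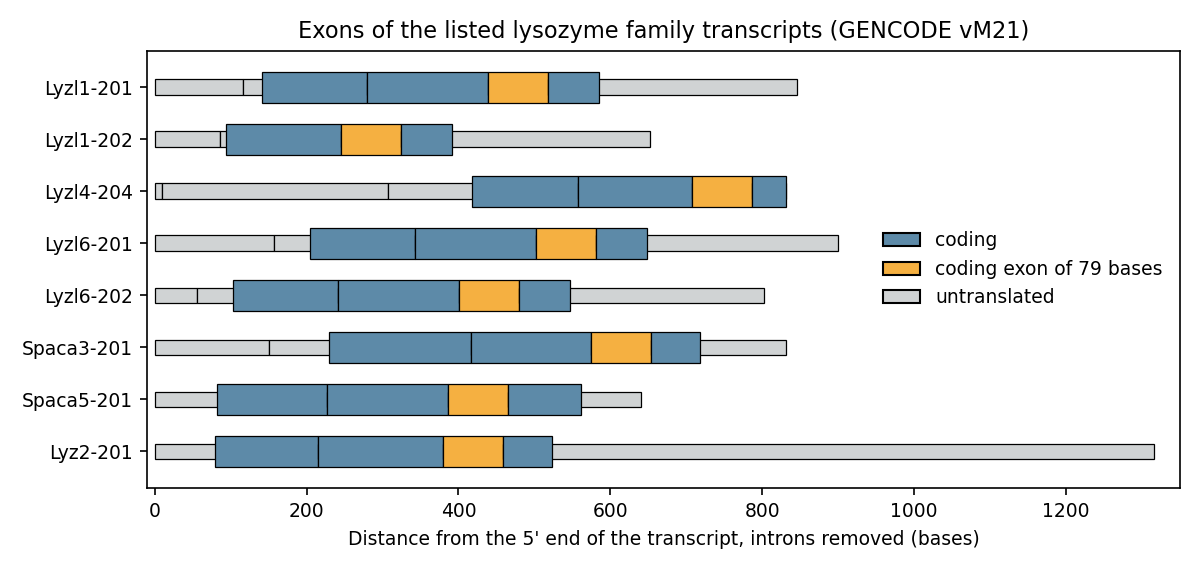
Exons of the 6 listed member transcripts and of Spaca5-201 and Lyz2-201, with distance from the 5′ end in bases along the horizontal axis and introns removed. Tall blue boxes are coding, low grey boxes are untranslated, and the coding exon of 79 bases, present in every transcript drawn, is orange. Lyzl1-202 has a shorter coding part than Lyzl1-201, and Lyzl6-201 and Lyzl6-202 differ at their 5′ ends.

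All 4 genes were lower in the cKO testes, and no cKO library reached the level of a WT library for any of the 6 transcripts, although Lyzl1-202 was on the other side of 0, at a log2 fold change of 0.34, when libraries were scaled to equal round spermatid counts. Summed over listed transcripts, the mean cKO level was 13.5% of the WT level for Lyzl6, 17.1% for Spaca3, 18.1% for Lyzl1 and 19.3% for Lyzl4, in FPKM, a level scaled to transcript length and library total. Of all 11304 listed transcripts, 66.9% likewise had both cKO libraries below both WT libraries in normalized counts, the expected read counts divided by the authors' size factors. In whole testis, fewer cells of a type and less RNA per cell cannot be told apart.

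Per length, the summed listed transcripts of the genes kept 1 order in both genotypes. Lyzl1 stood at 19.2 ± 5.47 FPKM in the cKO and 106 ± 7.85 FPKM in the WT (SD, n = 2 each), and Spaca3 at 16.1 ± 6.17 FPKM in the cKO and 94.2 ± 19.8 FPKM in the WT. Lyzl6 followed at 10.4 ± 2.04 FPKM in the cKO and 77.3 ± 17.6 FPKM in the WT, and Lyzl4 at 3.66 ± 0.552 FPKM in the cKO and 19.0 ± 1.71 FPKM in the WT. Within each genotype the libraries of Lyzl1 and Spaca3 overlapped, as did those of Spaca3 and Lyzl6. The listed Lyzl4 transcript lay below the sums of the other 3 genes in every library. Listed were 2 of 2 annotated transcripts for Lyzl1, 1 of 2 for Spaca3, 2 of 3 for Lyzl6 and 1 of 5 for Lyzl4. These sums therefore do not rank the whole genes.

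**Figure D2:**
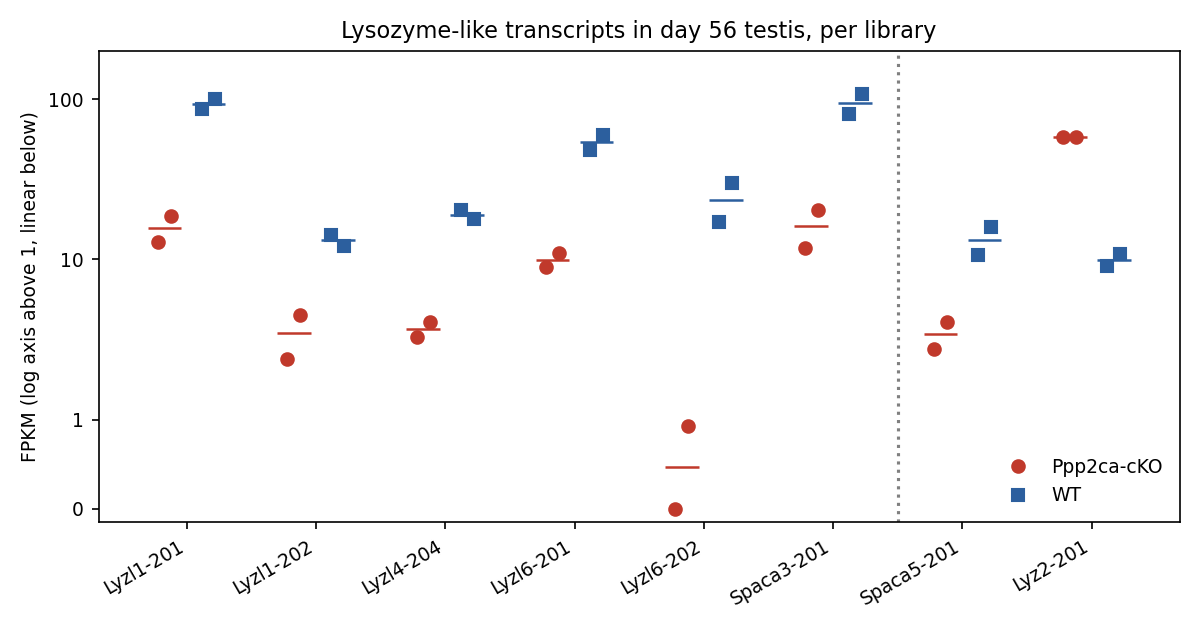
FPKM of each member transcript, and right of the dotted line of Spaca5-201 and Lyz2-201, in the cKO (red circles) and WT (blue squares) libraries. The vertical axis is logarithmic above 1 and linear below, each point is a library and each bar the mean of 2. The 6 member transcripts are lower in both cKO libraries than in either WT library, while Lyz2-201 has 58.2 and 58.3 FPKM in the cKO against 9.04 and 10.8 FPKM in the WT.

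Spaca3 was represented by Spaca3-201, of 831 bases, 489 of them coding. It had 11.7 and 20.4 FPKM in the cKO libraries and 80.1 and 108 FPKM in the WT libraries. Its normalized counts were 109 and 191 in the cKO libraries, mean 150.1 ± 58.1 (SD), and 1070.3 and 1495 in the WT libraries, mean 1283 ± 300.1. The genotypes were far apart, although the cKO libraries differed from each other by 1.75 times. The log2 fold change of cKO over WT was -3.09 ± 0.40 (SE), with an adjusted p of 0.0195 in edgeR's quasi-likelihood test with Benjamini-Hochberg adjustment.

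Lyzl4 encodes a protein reported in the acrosome of mouse sperm that lacks lytic activity. Its transcript Lyzl4-204, whose annotated sequence ends within the last coding exon, had 3.27 and 4.05 FPKM in the cKO libraries and 20.2 and 17.8 FPKM in the WT libraries. These rest on few reads in the cKO, 37.7 and 47.4 expected counts against 221 and 209.9 in the WT. Both cKO libraries were low and close to each other. The log2 fold change was -2.91 ± 0.36 (SE), with an adjusted p of 0.0190 in edgeR's test. It did not pass with TMM (-1.40, adjusted p 0.116) or RLE (-1.37, adjusted p 0.129). Both scalings were computed from the listed transcripts alone and bring the median of all tested transcripts near 0 (-0.11 and -0.07). The lost calls are therefore no independent check. An antisense gene, Lyzl4os, overlaps the locus but shares 0 exon bases with Lyzl4, and strandedness of the libraries is not stated.

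Lyzl1 spans chr18:4165832-4182232 on the plus strand of GRCm38 and was listed with a major and a minor transcript. Lyzl1-201 had 12.9 and 18.5 FPKM in the cKO libraries and 86.2 and 99.5 FPKM in the WT libraries. In normalized counts these were 123 and 178 in the cKO and 1178 and 1409 in the WT. The cKO libraries lay together, far below the WT libraries, and the log2 fold change was -3.11 ± 0.32 (SE; adjusted p 0.0161 in edgeR's test). Lyzl1-202 skips the 164-base second exon of Lyzl1-201, which holds the start codon and 139 coding bases, and is annotated with 297 coding bases against 444. It had 2.39 and 4.51 FPKM in the cKO libraries and 14.2 and 12.0 FPKM in the WT libraries. Again no library of 1 genotype reached the other, and the log2 fold change was -2.45 ± 0.49 (SE; adjusted p 0.0427 in edgeR's test). This call did not hold with the replicate number as a block (-2.49, adjusted p 0.0666), with TMM (-0.95, adjusted p 0.910), with RLE (-0.92, adjusted p 0.965), with library totals (-1.93, adjusted p 0.0718) or with limma on FPKM (-1.96, adjusted p 0.0657).

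Lyzl6, whose human protein has been reported on sperm with activity against bacteria, was listed with transcripts that share every coding exon and differ in the first exon, of 157 bases in Lyzl6-201 and 56 bases in Lyzl6-202. Lyzl6-201 had 8.97 and 10.9 FPKM in the cKO libraries and 47.8 and 59.9 FPKM in the WT libraries. Its log2 fold change was -2.98 ± 0.32 (SE; adjusted p 0.0164 in edgeR's test), near that of Spaca3 and Lyzl1-201. Lyzl6-202 had 0 and 0.930 FPKM in the cKO libraries and 17.0 and 29.8 FPKM in the WT libraries. The WT libraries held 177 and 334 expected counts of it, while the cKO libraries held 0 and 10.3. Its fitted log2 fold change was -6.20 ± 1.06 (SE; adjusted p 0.0307 in edgeR's test). DESeq2 gave -6.24, and limma on FPKM gave -6.14 and did not pass (adjusted p 0.0631). Without cKO replicate 1, the library at 0, the edgeR value was -5.23, and without cKO replicate 2 it was -11.20. The authors' deposited table gives -3.46 for Lyzl6-202, and the cause of this difference was not tested. For the other 5 transcripts the authors' deposited table gives values between -3.07 for Lyzl1-201 and -2.35 for Lyzl1-202.

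Across the members, 6 of 6 transcripts were called lower and 0 higher at an adjusted p under 0.05 in edgeR's test, where 41.4% of all 10716 tested transcripts were called lower. With the table chosen on the same contrast, nothing is read from this count. Over all tested transcripts 4436 were called lower and 1119 higher, against 1295 lower and 3641 higher when libraries were scaled by TMM, where 4 of the 6 members were called lower. By the unadjusted p under 0.05 the counts were also 6 lower and 0 higher, and DESeq2 called 6 lower. Library totals and the replicate block each called 5 lower, and RLE and limma on FPKM each called 4. With equal round spermatid counts 0 were called lower. Leaving out Lyzl6-202, the log2 fold changes ran from -3.11 to -2.45. Without either WT replicate the adjusted edgeR test called 0 of the 6, and 6 of the 6 had an unadjusted p under 0.05. An exact permutation test over 2 and 2 libraries cannot give a p below 0.333.

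In all 5 transcripts with reads in both cKO libraries, cKO 2 was higher than cKO 1, by 1.23 times for Lyzl6-201 to 1.86 times for Lyzl1-202. The round spermatid list, 19 listed genes used as markers, summed to 7277 normalized counts in cKO 1 and 10764 in cKO 2. Sums were also higher in cKO 2 for the elongating spermatid (9206 and 26189), spermatocyte (33317 and 41530) and Leydig lists (26599 and 36567). The Sertoli sums were closer (48100 and 49121), and the leukocyte sum was lower in cKO 2 (2349 and 2296). The rise was thus not particular to the round spermatid list. The WT libraries differed by 0.861 times for Lyzl1-202 to 1.81 times for Lyzl6-202, WT 2 over WT 1.

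The split of Lyzl6 reads between its transcripts also differed between the libraries. Lyzl6-202 took 0% of 115 Lyzl6 reads in cKO 1 (Wilson 95% interval 0% to 3.23%) and 6.54% of 153 reads in cKO 2 (3.59% to 11.6%). In the WT it took 23.4% of 758 reads in WT 1 (20.5% to 26.5%) and 29.7% of 1123 reads in WT 2 (27.1% to 32.5%). Both cKO intervals lie below both WT intervals. These intervals cover counting error only, and the reads of the shared exons were divided between the transcripts by estimate.

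For Lyzl1, the minor transcript Lyzl1-202 took 11.6% and 14.3% of Lyzl1 reads in the cKO libraries and 10.2% and 7.60% in the WT libraries. The Wilson 95% intervals were 7.65% to 17.3% in cKO 1 and 10.5% to 19.1% in cKO 2, against 8.57% to 12.2% in WT 1 and 6.29% to 9.17% in WT 2. The interval of cKO 1 overlaps both WT intervals, while that of cKO 2 overlaps WT 1 and lies above WT 2. Transcript use was tested with edgeR's diffSpliceDGE, chosen after these shares were seen, over genes with at least 2 tested transcripts. Transcripts that are not listed do not enter it. In this test the change of Lyzl6-202 was -2.82 on the log2 scale relative to its gene and did not pass, with an adjusted p of 0.0730. Lyzl1-202 was at 0.59 relative to its gene, with an adjusted p of 0.872. In that test 15.9% of 5761 transcripts passed. The adjusted p of Lyzl6-202 was 0.00279 without cKO replicate 2, 0.0674 without cKO replicate 1, 0.254 without WT replicate 1 and 0.366 without WT replicate 2. Scaled to equal round spermatid counts the transcript was at -2.96 relative to its gene and passed, with an adjusted p of 0.0334.

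The start regions of Lyzl6 and Spaca3 are shown because Lyzl6-201 and Spaca3-201 begin 1 base and 9 bases downstream of a start in RefSeq's promoter table (GRCm38.p6). Each runs from 250 bases before to 50 bases after the RefSeq start, 5′ to 3′ on the strand of the gene. Both strands were searched for TGACGTCA and its part TGACG, the motif and core of CREM, a transcription activator of round spermatids, and for TATAAA and CCAAT. Capitals mark each match.
Lyzl6 (chr11:103638841-103639140, minus strand): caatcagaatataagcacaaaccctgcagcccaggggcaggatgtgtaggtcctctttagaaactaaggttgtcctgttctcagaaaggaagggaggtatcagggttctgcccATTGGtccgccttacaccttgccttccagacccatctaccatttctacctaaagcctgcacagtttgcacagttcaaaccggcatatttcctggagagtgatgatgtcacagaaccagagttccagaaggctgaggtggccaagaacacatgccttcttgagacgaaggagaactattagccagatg
Spaca3 (chr11:80858113-80858412, plus strand): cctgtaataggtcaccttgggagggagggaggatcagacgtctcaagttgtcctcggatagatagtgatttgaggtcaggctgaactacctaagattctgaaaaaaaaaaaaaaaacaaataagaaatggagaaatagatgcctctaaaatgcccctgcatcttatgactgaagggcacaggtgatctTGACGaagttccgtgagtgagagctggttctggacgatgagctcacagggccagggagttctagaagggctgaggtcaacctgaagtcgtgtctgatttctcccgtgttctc
The Lyzl6 window held 1 CCAAT, read on the opposite strand as ATTGG at position -137 from the start. The Spaca3 window held 1 TGACG on the strand of the gene at position -62. Neither held TGACGTCA or TATAAA. Of all 32851 promoter windows in the table, 37.4% held CCAAT, 20.8% TGACG, 13.6% TATAAA and 1.79% TGACGTCA. RefSeq windows were matched for 3 of the 4 members, and the 2 Lyzl4 windows whose starts lie 97 and 624 bases from that of Lyzl4-204 held no TGACG. A further Lyzl4 window, whose start lies far downstream of that of Lyzl4-204, held TGACG at position -111 on the opposite strand.

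The other family genes in the table differed in direction. Spaca5-201 had 2.76 and 4.04 FPKM in the cKO libraries and 10.6 and 16.0 FPKM in the WT libraries, a log2 fold change of -2.51 ± 0.48 (SE; adjusted p 0.0396 in edgeR's test). It did not pass with TMM (-0.99, adjusted p 0.776), RLE (-0.96, adjusted p 0.843), library totals (-1.97, adjusted p 0.0594) or limma on FPKM (-1.93, adjusted p 0.0558). Lyz2-201 rose, with normalized counts of 968 and 993 in the cKO libraries and 215 and 269 in the WT libraries, and a log2 fold change of 2.02 ± 0.27 (SE; adjusted p 0.0211). Its value was 4.91 with equal round spermatid counts and 0.73 with equal Sertoli counts, where it did not pass (adjusted p 0.324), and the adjusted p was 0.179 without WT replicate 1 and 0.163 without WT replicate 2. Of the 18 genes of the leukocyte list, 9 are not listed. Beside Lyz2-201, 4 of the 9 tested genes of that list rose and 0 fell, where 11.2% of all leading transcripts were called higher. The count was 9 with TMM or RLE, 8 with library totals and 1 with equal Sertoli counts. Of all tested transcripts, 3641 of 10568 were called higher with TMM and 3650 of 10568 with RLE. It was 2963 of 10655 with library totals and 312 of 10782 with equal Sertoli counts. Among the 4 was Csf1r, the receptor for a macrophage growth factor, at 1.76 ± 0.28 (SE). The leukocyte list summed to 2349 and 2296 normalized counts in the cKO libraries and 654 and 649 in the WT libraries, and its part in the Lyz2 value was not tested. Lyz1, Lalba, Lyg1 and Lyg2 are not listed.

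The members fell beside other genes of the acrosome and of fertilisation. In the acrosome list 27 of 33 tested genes fell, 0 rose and 6 did not pass, with a median log2 fold change of -2.96, against -3.04 for the 4 leading transcripts of the members. The median of all 7119 tested leading transcripts, the most abundant listed transcript of each gene, was -1.44, and 39.8% of these were called lower and 11.2% higher. Actl7a, an actin-like protein that anchors the acrosome to the nucleus, fell by 3.42 on the log2 scale in the cKO (SE 0.42, adjusted p 0.0188), and Actl9, its relative, fell by 2.99 (SE 0.38, adjusted p 0.0194). Crisp2, a cysteine-rich sperm protein, fell by 1.80 (SE 0.22, adjusted p 0.0188), and Lypd4, a surface protein of sperm, fell by 1.68 (SE 0.23, adjusted p 0.0221). Dkkl1 was at -1.37 ± 0.47 and did not pass (adjusted p 0.184). With TMM 15 acrosome genes were called lower, and with equal round spermatid counts 1 was. In the latter setting 3 acrosome genes were lower and 14 higher at an unadjusted p under 0.05 in edgeR's test. Of all tested transcripts, 1295 of 10568 were called lower and 3641 higher with TMM. With equal round spermatid counts 327 of 10504 were called lower and 4512 higher.

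In the sperm-egg binding and fusion list 15 of 17 tested genes fell, 0 rose and 2 did not pass, with a median of -3.15, and 7 were called lower with TMM and 0 with equal round spermatid counts, where 2 were lower and 6 higher at an unadjusted p under 0.05. The calls over all tested transcripts in these settings are those given beside the acrosome list. Of the 21 genes chosen for the sperm-egg binding and fusion list, 4 are not listed. Adam3, a sperm surface protein needed for binding to the egg coat in mice, fell by 1.81 on the log2 scale (SE 0.22, adjusted p 0.0186 in edgeR's test). Clgn, the chaperone calmegin of spermatogenic cells, fell by 1.62 (SE 0.23, adjusted p 0.0221), Adam5 fell by 1.56 (SE 0.29, adjusted p 0.0361) and Adam1b fell by 1.37 (SE 0.24, adjusted p 0.0334). The most abundant genes of both lists thus lie nearer to 0 than the members, apart from Actl7a and Actl9.

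**Figure D3:**
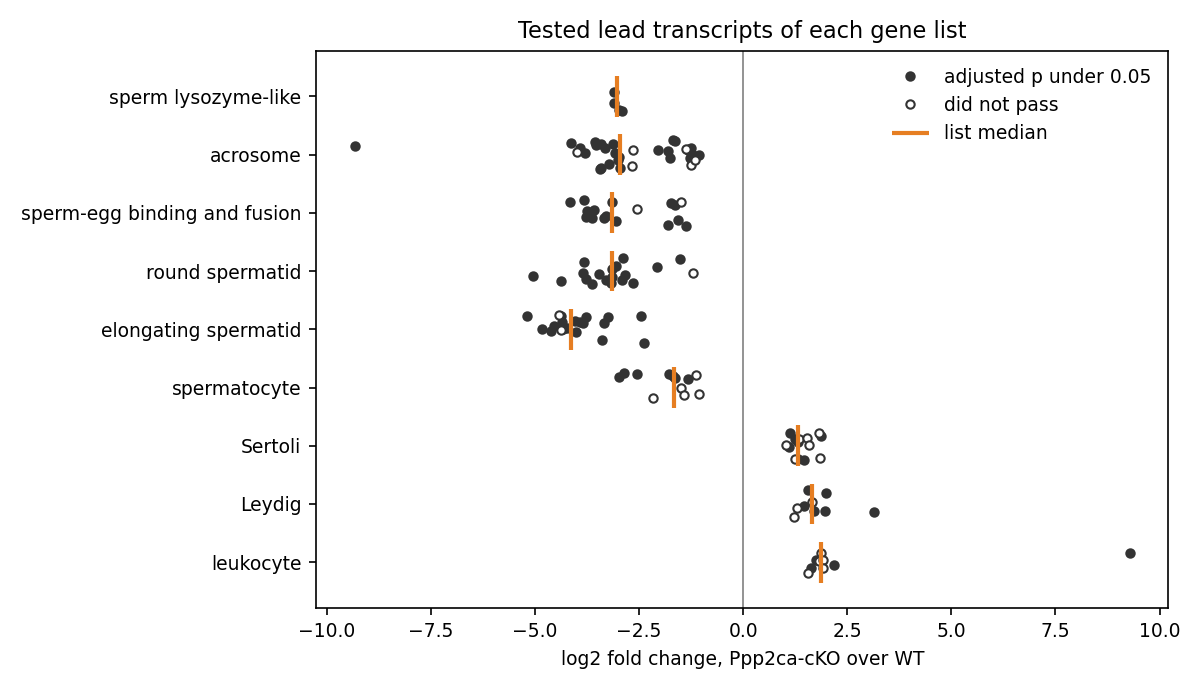
Log2 fold change of cKO over WT for the leading transcript of each tested gene, with the authors' size factors, in rows by gene list with the sperm lysozyme-like genes at the top. Filled points passed an adjusted p under 0.05 in edgeR's test, open points did not, and orange bars are list medians. The germ cell lists lie left of 0 and the Sertoli, Leydig and leukocyte lists right of it, and the 2 points beyond 9 in size, Pick1 and Itgam, are fits against a group at 0.

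Markers of the cells of the testis shifted with these genes. In the round spermatid list 18 of 19 tested genes fell, and its summed normalized counts were 7277 and 10764 in the cKO libraries and 57109 and 72737 in the WT libraries. In the elongating spermatid list 18 of 20 fell, with sums of 9206 and 26189 in the cKO and 296200 and 346317 in the WT. In the spermatocyte list 7 of 12 fell, with a median of -1.66, while 7 of 14 Sertoli genes and 6 of 9 Leydig genes rose. These counts and the median leave out unlisted genes, which are 8 of 20 spermatocyte, 6 of 20 Sertoli and 4 of 14 Leydig genes. Over all leading transcripts, 39.8% were called lower and 11.2% higher. With TMM or RLE the counts were 12 round and 16 elongating spermatid genes lower and 14 Sertoli and 9 Leydig genes higher. They were 1, 4, 14 and 9 in the same order with equal round spermatid counts. Of all tested transcripts, 1295 of 10568 were called lower and 3641 higher with TMM, and 1301 and 3650 with RLE. With equal round spermatid counts 327 of 10504 were called lower and 4512 higher. With equal Sertoli counts 7383 of 10782 were called lower and 312 higher. With equal Sertoli counts 19 round and 20 elongating spermatid genes were called lower and 0 Sertoli genes and 1 Leydig gene higher, and without either WT replicate edgeR called 0 in each of these 4 lists. Klhl10, a ubiquitin ligase adaptor of round spermatids, fell by 3.77 (SE 0.48, adjusted p 0.0192 in edgeR's test) and Prm2, a protamine that packs sperm DNA, fell by 5.19 (SE 0.96, adjusted p 0.0360). Clu, a secreted chaperone of Sertoli cells, rose by 1.25 (SE 0.22, adjusted p 0.0333) and Cyp17a1, a steroid-making enzyme of Leydig cells, rose by 1.96 (SE 0.29, adjusted p 0.0242). The Sertoli sums were 48100 and 49121 in the cKO and 19181 and 20605 in the WT. None of the 10 genes of the epididymis epithelium list is in the table. The part of these shifts in the values of the members was not tested.

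The distance between the genotypes depended on the marker list the members were set against. Each base sums only listed genes, 12 of 20 for the spermatocyte, 33 of 34 for the acrosome and 19 of 20 for the round spermatid list. All of these were lower in the cKO, and unlisted markers are left out. Each sum is also weighted by its most abundant genes. The most abundant were Crisp2 (log2 fold change -1.80) in the acrosome list and Ldhc (-1.33) in the spermatocyte list. Gene by gene, the median was -1.66 for the spermatocyte, -2.96 for the acrosome and -3.16 for the round spermatid list. It was -3.04 for the leading transcripts of the members. Per count of the spermatocyte list, the mean cKO value was 30.8% of the WT for Lyzl1-201, 30.9% for Spaca3-201, 34.0% for Lyzl6-201 and 34.8% for Lyzl4-204. Per count of the acrosome list it was 45.4%, 45.7%, 49.7% and 51.6% in the same order. On neither base did the genotypes overlap. In normalized counts, 66.9% of all 11304 listed transcripts had both cKO libraries below both WT libraries. That share was not computed on any marker base, so nothing is read from a lack of overlap here. The distance was smaller per 1000 counts of the round spermatid list, where Lyzl1-201 had 16.9 and 16.5 in the cKO libraries and 20.6 and 19.4 in the WT libraries, and Spaca3-201 had 15.0 and 17.8 in the cKO and 18.7 and 20.6 in the WT. For both on this base, the cKO libraries stayed below the WT libraries, with means at 83.6% and 83.3% of the WT. Lyzl6-201 had 12.8 and 10.6 in the cKO libraries and 12.4 and 12.7 in the WT libraries, and Lyzl4-204 had 4.19 and 3.52 in the cKO and 4.73 and 3.38 in the WT. For these and for Lyzl1-202 the genotypes overlapped. Lyzl6-202 had 0 and 0.765 in the cKO libraries and 3.79 and 5.38 in the WT libraries, 8.34% of the WT mean, and Spaca5-201 had 2.44 and 2.38 in the cKO against 1.71 and 2.06 in the WT, which is higher in the cKO. On the same base the summed elongating spermatid list stood at 37.2% and the summed acrosome list at 188% of the WT. Both sums are weighted by their abundant genes.

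**Figure D4:**
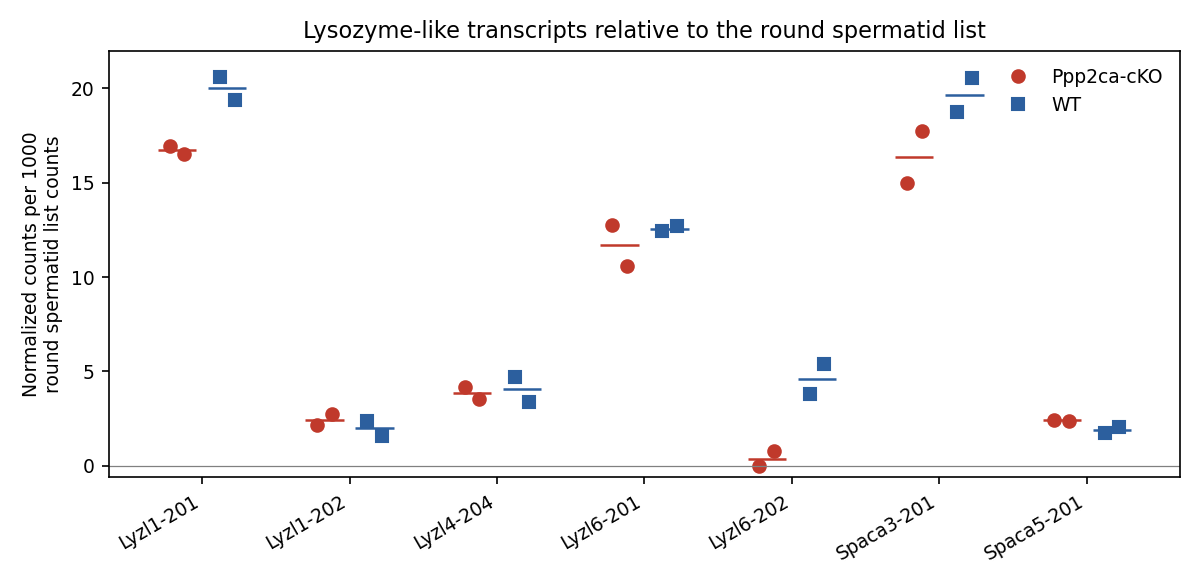
Normalized counts of the 6 member transcripts and Spaca5-201 per 1000 counts of the round spermatid list, in the cKO (red circles) and WT (blue squares) libraries, on a linear axis. Points are libraries and bars are means of 2. Lyzl1-202, Lyzl4-204 and Lyzl6-201 overlap between the genotypes, and Lyzl6-202 is at 8.34% of the WT mean.

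The size of the members' change therefore depends on what the libraries are scaled to. The Sertoli base holds only the 14 listed of 20 genes, whose log2 fold changes are 1.03 or more. The round spermatid base holds only the 19 listed of 20 genes, whose log2 fold changes are -1.20 or less. The direction in which these bases move the members from the authors' size factors was therefore fixed in advance. Scaled to equal Sertoli counts, the median log2 fold change of the 6 transcripts was -4.32. With the authors' size factors it was -3.04, with library totals -2.51 and with edgeR's TMM -1.52. The median of all tested transcripts under these scalings was -3.02, -1.70, -1.14 and -0.11 in the same order. Scaled to equal round spermatid counts, the members' median was -0.18 while that of all tested transcripts was 1.28, edgeR called 0 of the 6 lower, and 1 of the 6 had an unadjusted p under 0.05. Of all 10504 transcripts tested with this scaling, 327 were called lower and 4512 higher. There Lyzl1-202 was at 0.34 and Spaca5-201 at 0.35, on the other side of 0.

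**Figure D5:**
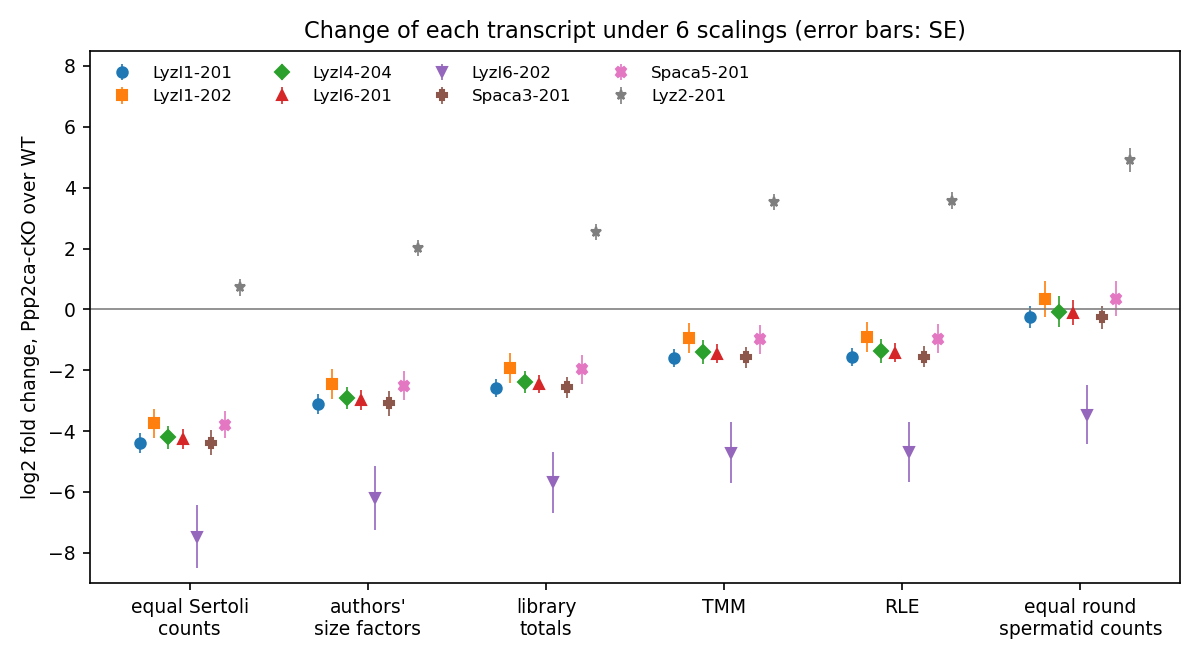
Log2 fold change of cKO over WT (vertical axis) of each member transcript, Spaca5-201 and Lyz2-201 under 6 ways of scaling the libraries, with bars for the SE. From left to right the members move towards 0, and at equal round spermatid counts Lyzl1-201 is at -0.26, Spaca3-201 at -0.26, Lyzl6-201 at -0.11 and Lyzl4-204 at -0.076, while Lyzl1-202 is at 0.34 and Lyzl6-202 is at -3.47.

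Genes whose pattern over the 4 libraries was most like that of each member were ranked among 6101 leading transcripts by the Euclidean distance of centred log2(normalized count + 1). Nearest to Lyzl1 were Nutm2 at 0.0630, Catsper3, a subunit of the calcium channel of the sperm tail and a gene of the round spermatid list, at 0.0945 and Asb15 at 0.108. For Spaca3 they were Neurl1a at 0.0508, Satl1 at 0.0676 and Mmel1 at 0.0899. For Lyzl4 they were Prom1 at 0.0952, Prkar2a at 0.0965 and Tmem144 at 0.110, and for Lyzl6 they were Dusp10 at 0.0869, Ttll8 at 0.0973 and Vmn1r43 at 0.105. These genes were picked as the nearest, so their distances are no measure to set those between members against, which ran from 0.239 for Lyzl1 and Lyzl6 to 0.608 for Lyzl4 and Spaca3.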

How the data were processed

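Testis RNA-seq of 2 cKO and 2 WT libraries was analysed from the table the authors deposited. For each Ensembl transcript and library it gives expected counts and FPKM, per the file headers, besides the authors' mean normalized count (a signal over the 4 libraries), their log2 fold changes and standard errors, their test statistic (a score) and their p-values and adjusted p-values. The deposited single-sample files repeat the FPKM values, with 45216 of 45216 equal. The submitters' processing notes name the build mm9, but the coordinates of the 6 lysozyme family genes in the table equal those of GRCm38, which is used here. For aligner and counting tool, nothing is given in the sources used here. The authors' deposited table lists 11304 transcripts, all with their adjusted p under 0.05 and their log2 fold change beyond 1 in either direction. It does not state how many were tested. That number, 64840, was inferred from the ratios of the authors' adjusted p-values to their p-values.

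Expected counts were rounded and tested with edgeR 4.0.16 (quasi-likelihood, R 4.3.3) under the authors' size factors, recovered from the table as 1.24 and 1.25 for the cKO and 0.818 and 0.854 for the WT. Transcripts with low counts were dropped by edgeR's filterByExpr at a minimum of 10, leaving 10716, and all 6 members passed. Their p-values were adjusted by Benjamini-Hochberg over the 64840 transcripts inferred to have been tested by the authors. Those of the transcript-use test were adjusted over its own 5761 transcripts. Spread was estimated on listed transcripts only, with a common biological coefficient of variation of 32.5%. Library totals, recovered from counts, length and FPKM, were 18684330 and 19834927 in the cKO and 17612150 and 19783778 in the WT, and the listed transcripts held 24.4% and 25.5% of the cKO reads and 43.3% and 44.5% of the WT reads. Alternatives were TMM, RLE, library totals, equal round spermatid or Sertoli counts, other filters, DESeq2 1.42.0, limma 3.58.1 on log2(FPKM + 0.1), a replicate block and leaving out each library. TMM, RLE and the marker counts used for scaling were computed from listed transcripts alone. The transcript-use test was chosen after seeing the data. Scripts were tested on simulated data.

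Named genes were every listed transcript of the members and their relatives, the 5 most abundant tested genes of the acrosome list, the 4 of the fusion list and up to 2 of each cell type list, and the 3 genes nearest in pattern to each member, skipping predicted and RIKEN genes. Pick1, Itgam and Lyzl4os were named after their values or positions were seen. The members and gene lists were chosen with earlier results of these data known. Libraries of 1 group differed by more than sampling noise (chi-square per degree of freedom 28.4 in the cKO and 32.2 in the WT).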

Additional observations from a re-analysis of the deposited data

How the results depend on the processing

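The 6 member transcripts were lower in the cKO in every setting run, except Lyzl1-202, which was at 0.34 with equal round spermatid counts (Spaca5-201 was at 0.35). There edgeR called 0 members lower, 1 acrosome gene and 0 fusion genes, with Lyzl1-201 at -0.26, Lyzl4-204 at -0.076, Lyzl6-201 at -0.11, Lyzl6-202 at -3.47 and Spaca3-201 at -0.26. With TMM the counts were 15 acrosome and 7 fusion genes, and Lyzl1-202 (-0.95) and Lyzl4-204 (-1.40) did not pass. RLE also gave 15 and 7, with Lyzl1-202 at -0.92 and Lyzl4-204 at -1.37 not passing. Lyzl1-202 also missed the threshold with library totals (-1.93), limma on log2(FPKM + 0.1) (-1.96) and the replicate block (-2.49). In limma Lyzl6-202, at -6.14, did not pass either, and 9 fusion genes were called lower. The cause was not tested.

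Leaving out 1 library gave 0 to 6 members, 0 to 32 acrosome genes and 0 to 17 fusion genes, the 0 being without either WT replicate, where edgeR called 0 of all transcripts. Log2 fold changes then ran from -3.40 to -2.86 for Lyzl1-201, -2.94 to -2.08 for Lyzl1-202, -3.07 to -2.78 for Lyzl4-204, -3.15 to -2.78 for Lyzl6-201, -11.20 to -5.23 for Lyzl6-202 and -3.55 to -2.75 for Spaca3-201. The lone library left in a group is assumed to vary like the other group. Same-numbered libraries deviated together with a correlation of 0.135 over 2 pairs, too few to show pairing, and the replicate block changed no member's call but that of Lyzl1-202. Across all transcripts, TMM gave 1295 lower and 3641 higher calls, against 4436 lower and 1119 higher with the authors' size factors. Low reads limit Lyzl6-202, Lyzl1-202 and Lyzl4-204 in the cKO most.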
